A study of Mus musculus with 4 samples.

Results

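The genes described here are 37 genes best known from enterocytes, the absorptive cells of the intestine, and from hepatocytes, the main cells of the liver, read in medullary thymic epithelial cells (mTECs). They were taken by symbol from the deposited count table, in which all 37 were among 23337 genes. The list holds 4 transcription factors, 7 proteins of the enterocyte surface and brush border, 11 genes of lipid binding and lipoprotein assembly, and 15 hepatocyte genes for plasma proteins and glucose release. The mTECs were sorted from thymi of C57BL/6 mice aged 4 weeks as CD45-EpCAM+UEA-1+Ly51- cells and measured by RNA-seq. The 2 libraries labelled WT came from mice without *Foxn1*-Cre, littermates or age-matched. The 2 libraries labelled *Sirt6*-/- came from mice in which *Foxn1*-Cre was combined with *Sirt6* loxp/loxp alleles, so that deletion of *Sirt6*, a histone deacetylase of the sirtuin family, was directed to thymic epithelium, where *Foxn1* is active, and not to the whole animal. The number of mice behind a library was not given in the sources used here, so p-values measure only the spread between these libraries.

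The 4 libraries held between 61102704 and 65907745 counts, and the filter on low counts left 18547 genes for the test. *Sirt6* itself, with counts of 622 and 755 in the WT pair against 882 and 835 in the other pair, was not lower (log2 fold change 0.37, SE 0.32, adjusted p = 0.80, edgeR). The count covers the whole gene, and the deleted stretch was not given in the sources used here, so directions below rest on the labels. The paper reports that *Sirt6* was inactivated, from a western blot of cultured thymic epithelial cells and quantitative PCR of sorted mTECs. The epithelial marker *Epcam* had 49078 to 72374 counts in each library, and the medullary regulator *Aire* 23001 to 42559. Transcripts of cells outside the gate were also present, with 16820 to 26127 counts of *Ptprc*, which encodes CD45. For 1 value over 2 pairs of libraries, the smallest two-sided p of an exact permutation test is 0.333.

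mTECs are known for expressing a wide range of genes whose products otherwise belong to single tissues, which exposes developing T cells to these self-antigens. Some mTECs resemble cells of peripheral tissues, gut and liver among them, and carry the transcription factors of those tissues. In the intestine and the liver, the nuclear receptors HNF4A and HNF4G bind promoters and enhancers of genes for lipoproteins, plasma proteins and brush border enzymes, and the homeobox factors CDX1 and CDX2 set intestinal identity. In bulk RNA of sorted cells, fewer cells of one kind and less RNA per cell cannot be told apart.

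The promoter letters of these genes were read from RefSeq windows on GRCm38.p6, from 250 bases before to 50 bases after each transcription start, which were matched for 32 of the 37 genes. 3 motifs were searched on both strands. The 9 letters CAAAGTCCA of an HNF4 site were in none of the windows of the 32 genes and in 0.475% of all 32851 windows. The shorter run CAAAGTC, contained in it and chosen after the longer one was not found, was in the windows of 4 genes (*Alb*, *Hpx*, *Rbp2* and *Ahsg*) and in 4.44% of all windows. The CDX letters CCATAAA were in the window of *Fabp1* alone, at 2 places, and in 2.75% of all windows. A match is a run of letters and not a measured binding site.

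The 250 bases before the start are shown for *Alb* and *Afp*, which are neighbours on chromosome 5 and differed in their counts as described below, and for the enterocyte gene *Rbp2*, which carries the HNF4 letters on the other strand. All 3 lie on the plus strand, and none overlaps an annotated exon of GENCODE M21. They span chr5:90460620-90460869, chr5:90490464-90490713 and chr9:98490287-98490536. Capitals mark the matches to the 7 HNF4 letters, read on either strand, and *Afp* has none.
Alb: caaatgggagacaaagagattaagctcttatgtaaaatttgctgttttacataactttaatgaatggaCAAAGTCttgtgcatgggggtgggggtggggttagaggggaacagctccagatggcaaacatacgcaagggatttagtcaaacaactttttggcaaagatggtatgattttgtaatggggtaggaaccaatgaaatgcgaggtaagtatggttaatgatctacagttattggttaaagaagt
Afp: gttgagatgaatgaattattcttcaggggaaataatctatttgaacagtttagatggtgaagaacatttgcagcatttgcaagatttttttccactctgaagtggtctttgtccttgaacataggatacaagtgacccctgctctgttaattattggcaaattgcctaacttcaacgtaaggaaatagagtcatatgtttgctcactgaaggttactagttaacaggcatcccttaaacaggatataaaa
Rbp2: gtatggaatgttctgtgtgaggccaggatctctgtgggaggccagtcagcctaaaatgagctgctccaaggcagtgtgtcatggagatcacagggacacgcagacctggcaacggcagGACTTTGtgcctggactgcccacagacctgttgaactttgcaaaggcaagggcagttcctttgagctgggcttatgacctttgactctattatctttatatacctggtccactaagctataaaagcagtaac
In *Alb* the HNF4 letters began 182 bases before the start, and in *Rbp2* 132 bases before it. Among the genes with these letters, the log2 fold change was 1.86 in *Alb*, and -0.67 in *Hpx*, -0.56 in *Rbp2* and -3.61 in *Ahsg*. A link between the letters and the counts was not tested.

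A small part of the 37 genes supplied most of their transcripts. In TPM, the authors' unit that corrects for transcript length and library size, the 37 genes had sums of 2163 (WT 1), 2392 (WT 2), 1511 (*Sirt6*-/- 1) and 2274 (*Sirt6*-/- 2). *Apoa4*, an apolipoprotein of intestinal lipid particles, made up between 43.6% and 46.8% of that sum, and in both WT libraries it stood above the 99th percentile of all genes (99.6 in each). *Apoa4*, *Apoa1*, *Cdx1* and *Cdhr5* together held 71.0% to 76.7%, and these 4 were the genes above 100 TPM in every library. Between 30 and 34 of the 37 lay above 1 TPM. At the low end, *Alb*, the most abundant plasma protein gene of the liver, had 1.21 ± 0.395 TPM (SD, n = 2) in WT, and *Lct*, the brush border lactase, 0.419 ± 0.511 TPM (SD, n = 2).

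**Figure D1:**
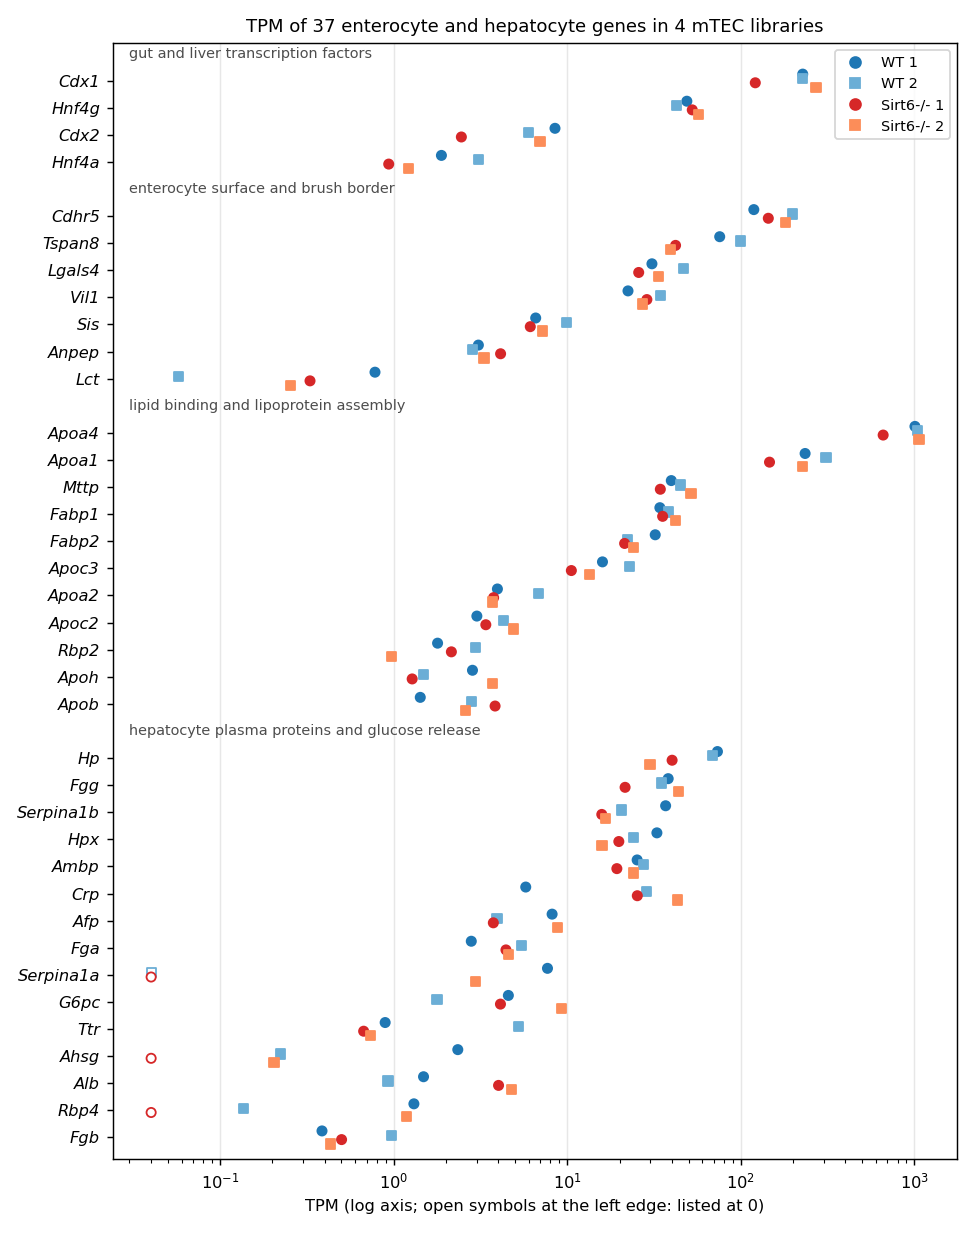
TPM of each of the 37 genes (rows, grouped by role and ordered by the WT mean) in the 4 libraries on a log axis; circles and squares are single libraries, and open symbols at the left edge are genes listed at 0. *Apoa4* is the most abundant in every library, while *Serpina1a*, *Ahsg* and *Rbp4* have libraries listed at 0.

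Between the groups, few of the 37 genes passed a test. All 37 passed the filter on low counts. By the quasi-likelihood test of edgeR at an unadjusted p of 0.05, *Tspan8* and *Hp* were lower in the libraries labelled *Sirt6*-/- (2 of 37, 5.41%, against 3.32% of all genes tested) and *Alb* was higher (1 of 37, 2.70%, against 5.27%). After adjustment over all genes, edgeR called 0 of the 37 (0.00539% of all genes, 1 gene in the table), while DESeq2 called *Tspan8* (adjusted p = 0.0160) and no other (1.88% of all genes). The log2 fold change was below 0 in 25 of 37 (67.6%, against 50.4% of all genes). Its median was -0.27, beside -0.0047 over all genes, and it ranged from -3.61 for *Ahsg* to 1.86 for *Alb*. Both libraries labelled *Sirt6*-/- lay below both WT libraries in CPM (counts scaled to library size with TMM factors) in 11 genes (29.7%, against 20.3% of all genes) and above both in 3 (8.11%, against 21.6%). In the other 23 genes the groups overlapped.

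**Figure D2:**
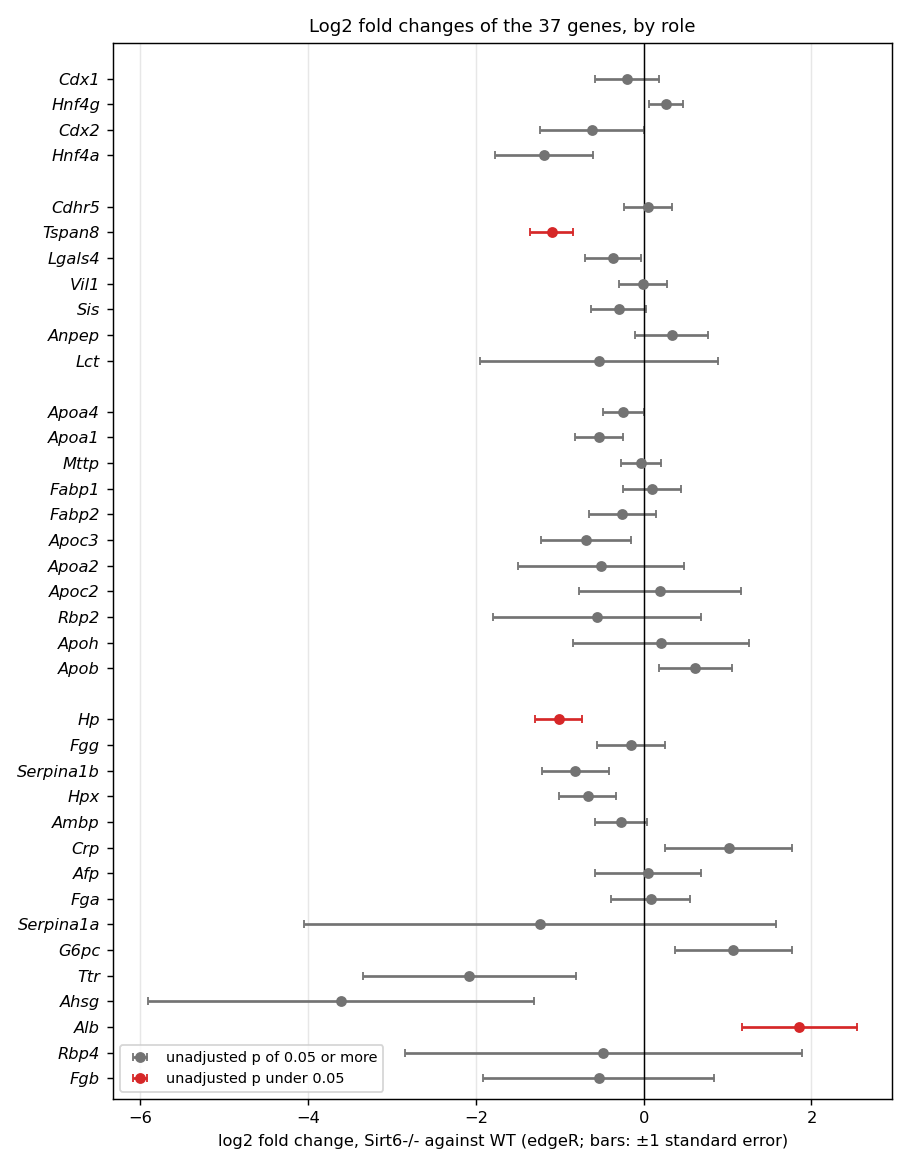
Log2 fold change of the libraries labelled *Sirt6*-/- against WT for each of the 37 genes by role, from edgeR, with bars of 1 standard error. *Tspan8* at -1.10, *Hp* at -1.01 and *Alb* at 1.86 are in red, the 3 genes under an unadjusted p of 0.05, and the longest bars belong to genes of few counts such as *Serpina1a*, *Ahsg* and *Rbp4*.

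The error of these fold changes depended on the level. The 17 genes with a mean of 10 CPM or more had a median SE of 0.31 on the log2 scale, and the 20 below 10 CPM had a median SE of 0.83, up to 2.82 for *Serpina1a*.

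**Figure D3:**
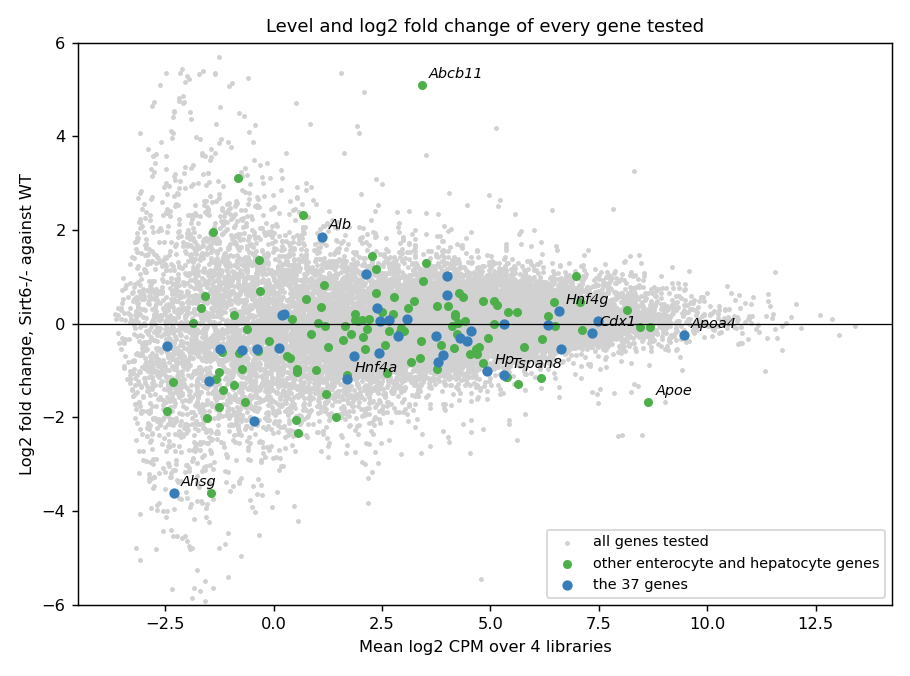
Mean log2 CPM over the 4 libraries (horizontal) against the log2 fold change of the libraries labelled *Sirt6*-/- over WT (vertical) for 18547 genes in grey, the 37 genes in blue and other enterocyte and hepatocyte genes in green. The 37 genes lie inside the grey cloud, and *Abcb11* among the green points stands above most genes of its level; 162 genes lie beyond the axis limit of 6.

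Of the 4 transcription factors, none passed the test. *Cdx1*, an intestinal homeobox factor, had counts of 12009 (WT 1), 11257 (WT 2), 5874 (*Sirt6*-/- 1) and 13873 (*Sirt6*-/- 2). The library *Sirt6*-/- 1 was low and *Sirt6*-/- 2 the highest of the 4, so the groups overlapped (log2 fold change -0.20, SE 0.38, adjusted p = 0.93). Its partner *Cdx2*, the main switch of intestinal identity, had 551, 365, 146 and 437 counts in the same order. Again *Sirt6*-/- 1 was the lowest and the groups overlapped (-0.62, SE 0.62, adjusted p = 0.84), with values of -1.56 without *Sirt6*-/- 2 and -0.052 without *Sirt6*-/- 1. *Cdx1* stood at 226 ± 1.298 TPM (SD, n = 2) in WT and *Cdx2* at 7.22 ± 1.80 TPM (SD, n = 2).

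*Hnf4g*, the HNF4 receptor of the intestine, had 6166, 5065, 6080 and 6961 counts in WT 1, WT 2, *Sirt6*-/- 1 and *Sirt6*-/- 2. After scaling, both *Sirt6*-/- libraries lay above both of WT, by less than the error allows to call (0.27, SE 0.20, adjusted p = 0.77). *Hnf4a*, the receptor shared by liver and gut, had 248, 384, 113 and 156 counts, so both WT libraries lay above both others. Its log2 fold change was -1.19 (SE 0.58, adjusted p = 0.64). In WT, *Hnf4g* stood at 45.7 ± 4.52 TPM (SD, n = 2) and *Hnf4a* at 2.48 ± 0.850 TPM (SD, n = 2), so *Hnf4g* held most of the HNF4 transcripts in every library.

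Of the 7 enterocyte surface genes, 1 was lower at the unadjusted p and 6 passed in neither direction, with a median log2 fold change of -0.30. *Tspan8*, a tetraspanin of epithelial membranes, had counts of 3403 and 4145 in the WT pair, against 1742 and 1662 in the pair labelled *Sirt6*-/-. The WT libraries were both high, and the groups did not overlap. In scaled units these were 58.6 ± 9.30 CPM (SD, n = 2) against 27.4 ± 2.09 CPM (SD, n = 2). Its log2 fold change came to -1.10 (SE 0.25, unadjusted p = 0.00619, adjusted p = 0.54 in edgeR). The unadjusted call held under every one of the 12 alternative settings and left-out libraries, with values from -1.27 to -0.92 when 1 library was left out.

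*Cdhr5*, a cadherin that links the tips of microvilli, had 8874, 14137, 9949 and 13158 counts in WT 1, WT 2, *Sirt6*-/- 1 and *Sirt6*-/- 2. The replicates of WT lay farther apart than the groups (0.05, SE 0.29, adjusted p = 0.98), and the sign changed to -0.028 with upper quartile scaling and to -0.043 with library size alone. *Anpep*, the aminopeptidase N of the brush border, had 318, 280, 392 and 332 counts and the highest log2 fold change of this group of genes (0.33, SE 0.44, adjusted p = 0.89). The other 4 were chosen after their values were seen. *Vil1*, which encodes the actin bundler villin, had 2106, 3048, 2483 and 2477 counts and a log2 fold change of -0.0056 (SE 0.29). *Lgals4*, a galectin of the intestinal lining, had 1336, 1912, 1029 and 1419 counts (-0.37, SE 0.33). *Sis*, the sucrase-isomaltase, had 1169, 1671, 999 and 1240 counts (-0.30, SE 0.32), and *Sirt6*-/- 1 was the lowest library of both *Lgals4* and *Sis*. *Lct* had 146 counts in WT 1 and 11 in WT 2, so its replicates spanned its whole range, beside 57 and 46 counts in the libraries labelled *Sirt6*-/-.

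Of the 11 lipid genes, none passed the test in either direction, and the median log2 fold change was -0.24. *Apoa1*, *Apoc3* and *Apoa4* lie together on chromosome 9 of GRCm38, between 46228580 and 46243459, a span of 14880 bases. *Apoa4* had 50677, 49616, 30503 and 51851 counts in WT 1, WT 2, *Sirt6*-/- 1 and *Sirt6*-/- 2, so 3 libraries were alike and *Sirt6*-/- 1 was low (-0.24, SE 0.25, adjusted p = 0.84). *Apoa1*, the main protein of high-density lipoprotein, had 6977, 8701, 3993 and 6554 counts, with *Sirt6*-/- 1 again the lowest (-0.53, SE 0.29, adjusted p = 0.67). *Apoc3*, an inhibitor of lipoprotein lipase, had 253, 342, 154 and 205 counts (-0.68, SE 0.54, adjusted p = 0.78). All 3 genes of the cluster had their lowest count in *Sirt6*-/- 1, and the groups overlapped in *Apoa4* but not in *Apoa1* or *Apoc3*. Exons of *Apoa4* overlap those of the antisense gene *Gm10680* over 632 bases (34.8% of the exon bases of *Apoa4*), and whether the counting used strand was not given in the sources used here.

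*Apob*, the scaffold of chylomicrons and low-density lipoprotein, went the other way, with counts of 598 (WT 1), 1115 (WT 2), 1479 (*Sirt6*-/- 1) and 1050 (*Sirt6*-/- 2). WT 1 was low and *Sirt6*-/- 1 high, and WT 2 lay between the *Sirt6*-/- libraries (0.62, SE 0.44, adjusted p = 0.75). *Mttp*, which loads lipid onto that scaffold, had 5127, 5481, 4068 and 5983 counts (-0.033, SE 0.24), with both WT libraries between those labelled *Sirt6*-/-. *Mttp* and the lipid genes that follow were chosen after their values were seen. *Fabp1*, a fatty acid binding protein of liver and gut, had 508, 539, 484 and 605 counts (0.10, SE 0.35), and the intestinal *Fabp2* had 626, 410, 383 and 454 (-0.25, SE 0.40). For both, a replicate of WT lay within the range of the libraries labelled *Sirt6*-/-. *Apoa2*, *Apoc2*, *Apoh* and the retinol binding *Rbp2* had 20 to 129 counts in any library, with log2 fold changes from -0.56 to 0.21 and SE from 0.97 to 1.24. *Apoc2* is uncertain besides, because 646 of its exon bases are shared with the same-strand gene *Gm44805*.

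Of the 15 hepatocyte genes, 1 was lower and 1 was higher at the unadjusted p, and the median log2 fold change was -0.48. *Hp*, the haemoglobin binding haptoglobin, had counts of 2978 and 2645 in the WT pair, against 1498 and 1179 in the pair labelled *Sirt6*-/-, so the groups did not overlap. In scaled units these were 43.5 ± 2.78 CPM (SD, n = 2) against 21.6 ± 4.55 CPM (SD, n = 2). Its log2 fold change came to -1.01 (SE 0.28, unadjusted p = 0.0131, adjusted p = 0.54 in edgeR and 0.0652 in DESeq2), and it was -0.83 with an unadjusted p = 0.0736 without *Sirt6*-/- 2. The summed level of 11 macrophage and dendritic cell markers was lower in the same libraries as *Hp* and *Tspan8*. It was 5756 CPM in WT 1, 3342 CPM in WT 2 and 2176 to 2286 CPM in the libraries labelled *Sirt6*-/-. Within WT, *Hp* was higher in WT 1 (45.5 against 41.6 CPM) and *Tspan8* in WT 2 (65.1 against 52.0 CPM). *Lyz2* made up most of the marker sum, with 2815 to 4647 CPM in WT and 1778 to 1906 CPM in the others. At the unadjusted p, 5 of 11 were lower (*Cd68*, *C1qa*, *C1qb*, *C1qc* and *Lyz2*) and 0 higher, against 3.32% and 5.27% of all genes. The groups overlapped in 4 of the 11, *Itgam*, *Itgax*, *Flt3* and *Siglech*, and the log2 fold changes of *Itgam* and *Siglech* were above 0. None of the 11 was at 0 in any library, and their part in the levels of *Hp* and *Tspan8* was not tested.

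*Alb* had counts of 92 and 55 in the WT pair, against 228 and 286 in the pair labelled *Sirt6*-/-, and both of the latter were high. This was 1.13 ± 0.383 CPM (SD, n = 2) against 4.12 ± 0.482 CPM (SD, n = 2), a 3.62-fold higher fitted level (log2 fold change 1.86, SE 0.69, unadjusted p = 0.0391, adjusted p = 0.56, edgeR). The counts were few, and with 1 library left out the log2 fold change ranged from 1.55 to 2.23. The unadjusted call was lost under 4 of the 12 alternative settings and left-out libraries. *Afp*, the fetal counterpart of albumin, lies next to *Alb*, and both fit in 48011 bases of chromosome 5. Its libraries gave counts of 515 (WT 1), 234 (WT 2), 217 (*Sirt6*-/- 1) and 537 (*Sirt6*-/- 2), so each group held a high and a low library (0.05, SE 0.63, adjusted p = 0.99). The difference between the 2 neighbours was not tested.

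The 3 fibrinogen chain genes lie in one cluster on chromosome 3, from 83007724 to 83049863. *Fgg*, the gamma chain, had 1754, 1514, 909 and 1959 counts in WT 1, WT 2, *Sirt6*-/- 1 and *Sirt6*-/- 2, again with *Sirt6*-/- 1 low and *Sirt6*-/- 2 high (-0.15, SE 0.40, adjusted p = 0.95). *Fga*, the alpha chain, had 284, 522, 413 and 414 counts (0.08, SE 0.47), and *Fgb*, the beta chain, 19, 44, 22 and 20 counts (-0.53, SE 1.38). In WT the chains stood at 36.5 ± 2.33, 4.12 ± 1.87 and 0.676 ± 0.410 TPM (SD, n = 2) for *Fgg*, *Fga* and *Fgb*, so transcripts of the 3 chains of one protein were far from equal in mTECs.

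The remaining plasma protein genes were, apart from *Ahsg*, chosen after their values were seen. *Hpx*, which binds haem, had 1468, 1013, 813 and 687 counts (-0.67, SE 0.34), and *Ambp*, the precursor of bikunin, 941, 968, 660 and 872 counts (-0.27, SE 0.31). Both were higher in WT without overlap, and neither passed the test. *Crp*, an acute-phase protein, had 296 counts in WT 1 beside 1387 in WT 2, 1192 in *Sirt6*-/- 1 and 2143 in *Sirt6*-/- 2. Its log2 fold change of 1.01 (SE 0.75, adjusted p = 0.76) became 2.56 (unadjusted p = 0.00555) without WT 2 and 0.26 without WT 1. *G6pc*, the glucose-releasing phosphatase of the liver, had 311, 114, 257 and 608 counts (1.07, SE 0.70), with WT 1 between the libraries labelled *Sirt6*-/-.

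*Ahsg* and *Ttr* were each set largely by 1 library. *Ahsg*, which encodes fetuin-A, had counts of 105 (WT 1), 10 (WT 2), 0 (*Sirt6*-/- 1) and 9 (*Sirt6*-/- 2) (-3.61, SE 2.30, adjusted p = 0.72). *Ttr*, the carrier of thyroxine, had 184 counts in WT 2 and 23 to 33 in the other 3, and its log2 fold change of -2.08 (SE 1.27) was -2.87 without WT 1, which passed the unadjusted threshold, and -0.33 without WT 2. *Rbp4*, the plasma carrier of retinol, had 43, 4, 0 and 33 counts, so each group held a high and a low library. A library with 0 counts allows at most about 3 counts, so such a value does not show that the gene was silent.

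The alpha-1 antitrypsin genes are close copies of each other. *Serpina1b* had 1586, 831, 624 and 696 counts (-0.82, SE 0.40, adjusted p = 0.64), and its value was -1.19 without WT 2, which passed the unadjusted threshold, and -0.33 without WT 1. *Serpina1a* had counts of 401 (WT 1), 0 (WT 2), 0 (*Sirt6*-/- 1) and 167 (*Sirt6*-/- 2). Of the 50-base words of their transcripts, 67.4% in *Serpina1a* and 35.8% in *Serpina1b* occur in another gene as well, so the counting could move reads between copies. Summed over the copies, the counts were 3208, 1547, 1155 and 1691, with WT 1 high and the other 3 libraries near each other. Of the 37 genes, 33 shared no such word with another gene.

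The 4 libraries did not contribute evenly to the low values. *Sirt6*-/- 1 was the lowest of the 4 libraries in 18 of the 37 genes (48.6%, against 25.9% of all genes tested), and it was the highest in 2 (5.41%, against 26.8%). WT 2 was the highest in 14 (37.8%, against 24.9%). *Sirt6*-/- 1 lay below *Sirt6*-/- 2 in 26 of the 37 (70.3%, against 49.8% of all genes), by a median of -0.31 on the log2 CPM scale, and in all 4 transcription factors. By role, it was below *Sirt6*-/- 2 in 8 of 11 lipid genes, in 11 of 15 hepatocyte genes and in 3 of 7 enterocyte surface genes. The WT replicates were uneven by role as well. WT 1 lay below WT 2 in 9 of 11 lipid genes, 5 of 15 hepatocyte genes and 5 of 7 enterocyte surface genes. Over the 37 genes it did so in 20 (54.1%, against 48.7% of all genes). The median log2 CPM gap between replicates was 0.57 in WT and 0.38 in *Sirt6*-/-, against 0.46 and 0.41 over all genes. The difference between group means was larger than the gap of both replicate pairs in 7 genes (18.9%, against 28.2% of all genes). These are descriptions of 4 libraries and carry no test.

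**Figure D4:**
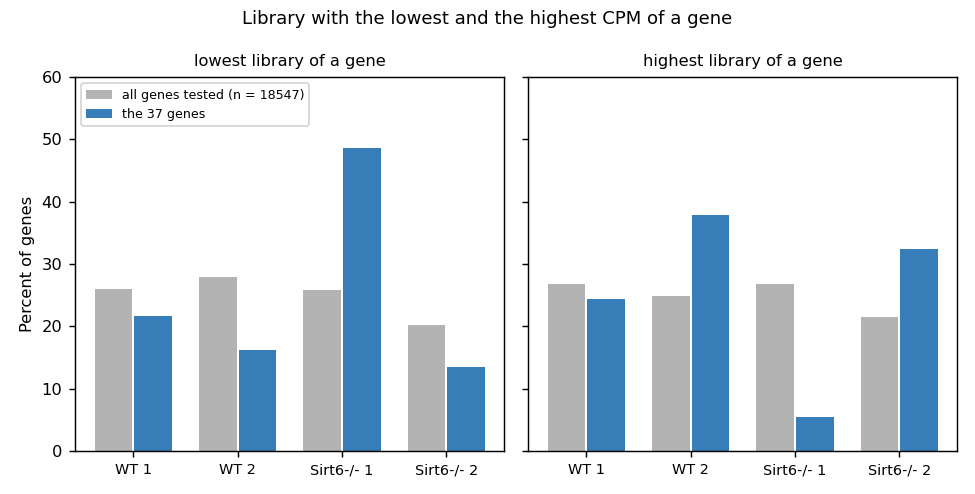
Percent of genes for which each library had the lowest (left) or the highest (right) CPM, for all 18547 genes tested in grey and the 37 genes in blue. *Sirt6*-/- 1 is the lowest library for 48.6% of the 37 genes and 25.9% of all genes, and the highest for 5.41% and 26.8%.

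Markers of mTECs outside the list went either way in the same library, and those named here were chosen after their values were seen. *Fezf2*, which drives tissue-restricted genes in mTECs, had 43961 and 43889 counts in WT, 23313 in *Sirt6*-/- 1 and 51499 in *Sirt6*-/- 2. *Aire*, the other main regulator of such genes, had 351 and 428 CPM in WT, 560 in *Sirt6*-/- 1 and 664 in *Sirt6*-/- 2, and *Epcam*, *Cd80* and *Krt5* in *Sirt6*-/- 1 also lay above both WT libraries. *Ccl21a*, a chemokine gene of the same marker list, had 504 and 1227 CPM in WT, 138 in *Sirt6*-/- 1 and 197 in *Sirt6*-/- 2. Its log2 fold change was -2.37 (SE 0.46, unadjusted p = 0.00292, edgeR). The summed level of 12 epithelial and mTEC markers was 6122 CPM in WT 1, 7629 in WT 2, 5996 in *Sirt6*-/- 1 and 7411 in *Sirt6*-/- 2. This sum was lower in library 1 of each group. It hides changes in either direction, since 1 of the 12 was lower and 3 were higher at the unadjusted p (3.32% and 5.27% of all genes). Whether the makeup of the sorted cells bears on the 37 genes was not tested.

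Leaving out a library moved the list as a whole. The median log2 fold change of the 37 genes was -0.052 without *Sirt6*-/- 1 and -0.51 without *Sirt6*-/- 2. Over all genes it was -0.027 and -0.062 in the same fits. Without *Sirt6*-/- 1, *Cdx1* stood at 0.27, *Apoa4* at 0.060 and *Fgg* at 0.27, each of the opposite sign to the value from all 4 libraries. Without *Sirt6*-/- 2, *Cdx1* stood at -0.90, *Apoa1* at -0.90, *Apoa4* at -0.64 and *Tspan8* at -1.04. In these fits the lone library is assumed to vary like the other group.

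**Figure D5:**
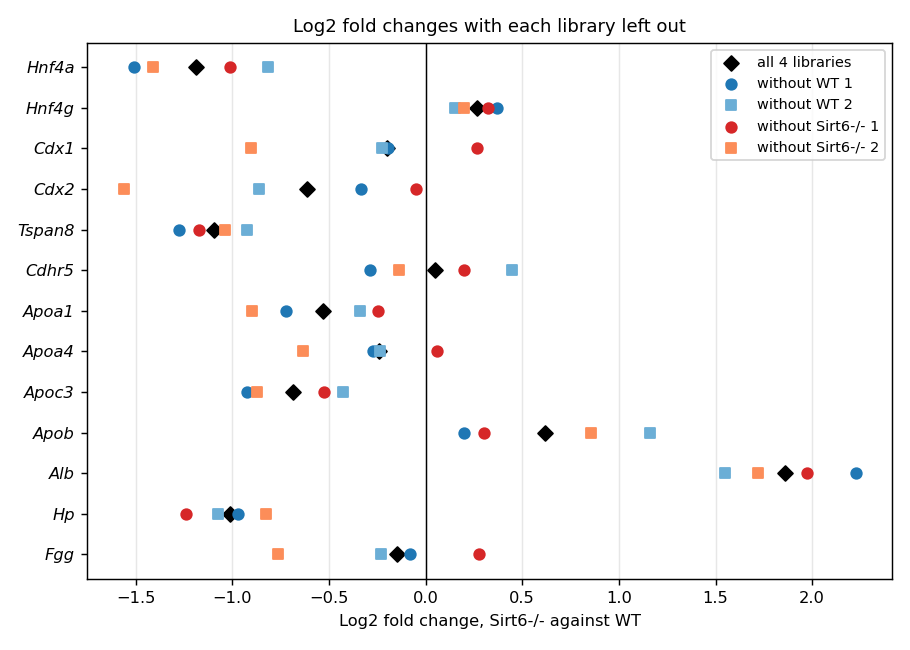
Log2 fold change, libraries labelled *Sirt6*-/- against WT, from all 4 libraries (black diamonds) and with each library left out (coloured symbols), for 13 of the 37 genes. *Tspan8* and *Hp* stay below 0 throughout, whereas *Cdx1*, *Apoa4* and *Fgg* lie on either side of 0 depending on which library labelled *Sirt6*-/- is left out.

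Beyond the 37 genes, 121 other genes of the same tissues were in the table: 22 regulators, 34 enterocyte genes and 65 hepatocyte genes. Of these, 115 were tested. At the unadjusted p, 6 of 115 were lower (5.22%, against 3.32% of all genes) and 5 higher (4.35%, against 5.27%). After adjustment, edgeR called 0 (0.00539% of all genes) and DESeq2 5 (4.35%, against 1.88% of all genes). The median log2 fold change was -0.12. Of the 21 regulators tested, 1 was lower and 2 were higher at the unadjusted p, beside 3.32% and 5.27% of all genes. *Onecut2*, a liver and gut homeobox factor, had counts of 378 and 314 in the WT pair, against 72 and 96 in the pair labelled *Sirt6*-/- (-1.99, SE 0.58, unadjusted p = 0.0163). *Vdr*, the vitamin D receptor, had 4895, 6542, 10983 and 11449 counts and was higher (1.02, SE 0.22, unadjusted p = 0.00486, adjusted p = 0.0170 in DESeq2).

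Among the 33 other enterocyte genes tested, *Espn*, an actin bundler of microvilli, was lower and none was higher (3.32% and 5.27% of all genes). *Espn* had counts of 3772 and 6978 in the WT pair, against 1253 and 3053 in the pair labelled *Sirt6*-/- (-1.29, SE 0.51, unadjusted p = 0.0485), so WT 1 and *Sirt6*-/- 2 lay close together. *Krt20*, the keratin of differentiated enterocytes and the most abundant of these genes in WT at 485 ± 17.4 TPM (SD, n = 2), had 28977, 26024, 19701 and 31077 counts (-0.07, SE 0.23, adjusted p = 0.96). As in *Cdx1* and *Apoa4*, *Sirt6*-/- 1 was the lowest library and *Sirt6*-/- 2 the highest.

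Among the 61 other hepatocyte genes tested, 4 were lower and 3 higher (3.32% and 5.27% of all genes). The 3 higher ones act in bile salt transport and the urea cycle. *Abcb11*, the bile salt export pump, had counts of 113 and 122 in the WT pair, against 3124 and 4685 in the pair labelled *Sirt6*-/-. That was 1.82 ± 0.135 CPM (SD, n = 2) against 62.4 ± 15.05 CPM (SD, n = 2), the largest log2 fold change of the 37 and the 115 genes (5.10, SE 0.34, adjusted p = 0.0862 in edgeR and 4.41e-44 in DESeq2). *Slc10a1*, which takes bile salts up into hepatocytes, had 51, 39, 186 and 253 counts (2.33, SE 0.75, unadjusted p = 0.0241), and *Cps1*, the first enzyme of the urea cycle, 401, 556, 882 and 1417 counts (1.304, SE 0.39, unadjusted p = 0.0177). The libraries labelled *Sirt6*-/- were high in all 3 without overlap, as they were in *Alb*, but these genes were named for a small p. Of the 115 genes, 21 were higher without overlap (18.3%, against 21.6% of all genes) and 28 lower (24.3%, against 20.3%).

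The lower hepatocyte genes named by the rule were *Apoe*, *Saa1* and *Cyp1a2*. *Apoe*, an apolipoprotein made by liver cells and by macrophages, had 60884, 33606, 12181 and 16515 counts (-1.67, SE 0.31, unadjusted p = 0.00246, adjusted p = 1.17e-04 in DESeq2). *Saa1*, an acute-phase protein, had 6408, 7454, 2738 and 3287 counts (-1.15, SE 0.22, unadjusted p = 0.00255, adjusted p = 0.00128 in DESeq2). *Cyp1a2*, a drug-metabolizing cytochrome, had 3396, 4525, 1839 and 1631 counts (-1.14, SE 0.28, unadjusted p = 0.00786, adjusted p = 0.0239 in DESeq2). In all 3, which were named for a small p, both WT libraries lay above both others. *Apoe* was highest in WT 1, where the macrophage and dendritic cell markers also summed highest at 5756 CPM. *Saa1* and *Cyp1a2* were highest in WT 2, where that sum was 3342 CPM. The part of macrophages and dendritic cells in the levels of these 3 genes was not tested.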

How the data were processed

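mTECs sorted from mice aged 4 weeks were measured in 4 RNA-seq libraries, 2 per group, grouped by the genotype in the labels. After FastQC and Trim Galore, the authors mapped reads to the mm10 genome (HISAT2 2.1.0) and counted them per gene (StringTie 1.3.3; versions from the submitters' processing notes). The deposited counts are whole numbers per gene without normalization. The TPM values deposited by the authors have the same sum in each library once a line with the column total and no gene is dropped. The annotation and strand setting were not given in the sources used here, and 0 columns of per-sample values were left out.

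Counts were tested in R 4.3.3 with edgeR 4.0.16 (filterByExpr with minimum count 10 and total 15, TMM factors from 0.966 to 1.04, glmQLFit and glmQLFTest; biological coefficient of variation 0.557) over 18547 genes, with Benjamini-Hochberg adjustment at 0.05. The fit held the 4 libraries with no covariate. Unadjusted calls are given because edgeR passed 1 gene after adjustment. The study's own test was DESeq2, run here as an alternative (version 1.42.0, 18961 genes with an adjusted p). Others were upper quartile scaling, library size alone, no filter, TPM over 0.1 in all libraries, the replicate number as a block, limma 3.58.1 on log2(TPM + 1) and log2(TPM + 0.1), and each library left out. A TPM fold change on the log2(TPM + pseudocount) scale is too small for low genes. No 2 libraries agreed within sampling noise in a chi-square test. The procedure was tested on simulated data. Standard deviations and p-values rest on 2 libraries per group, and the limit for a count of 0 covers counting error only.

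The 37 genes and the other gene lists were chosen with earlier results of these data known. Named by rule were the 4 transcription factors, genes with an unadjusted p under 0.05 and, per role, the 2 with the highest mean TPM in WT and those with the lowest and highest fold change; of the other gut and liver genes, up to 3 per list and direction with the smallest p, and the most abundant one. Some genes and motifs are not reported here, although counts over lists include them. Alternatives for other genes named were added after the data were seen. Positions, exon overlaps and shared 50-base words came from GENCODE M21 (GRCm38, the assembly of mm10), promoters from RefSeq (GRCm38.p6). Marker lists of other cell types were summed in CPM, with macrophages and mTECs in the report. Cortical epithelium had 947 to 1268, thymocytes 1040 to 1841, B cells 171 to 212, and fibroblasts and endothelium 657 to 751. The groups overlapped in each of these sums. Red cells had 75.0 and 89.6 in WT, and 55.8 and 70.8 in *Sirt6*-/-, without overlap. At the unadjusted p, 1 of 5 red cell markers was lower (*Hba-a2*), against 3.32% of all genes. Higher were 3 of 8 cortical markers (*Ly75*, *Dll4* and *Foxn1*) and 1 of 6 B cell markers (*Blk*), against 5.27%. No other marker of these lists passed. *Adgre1*, *Hbb-bs* and *Hbb-bt* were not in the table. Annotation and figures used Python 3.11.15 (pandas 2.3.3, matplotlib 3.10.9, numpy 2.4.6).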

Additional observations from a re-analysis of the deposited data

How the results depend on the processing

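The 6 counts and medians over the gene lists were recomputed under 12 alternatives. Members with an adjusted p under 0.05 numbered 0 in edgeR and 1 with DESeq2. Of the other gut and liver genes, 6 were lower, and 11 with DESeq2 or with library size alone. Over all genes, 615 of 18547 were lower, 920 of 20997 with DESeq2 and 838 of 18547 with library size alone. Higher were 5 of the other gut and liver genes, and 3 with the replicate number as a block. Over all genes, 977 of 18547 were higher, and 697 with that block. A fit with 1 library left out has a group of 1 library. The calls counted in such fits, given next, were not compared with those over all genes and carry no conclusion. The median over all genes in these fits ran from -0.062 without *Sirt6*-/- 2 to 0.041 without WT 1. With 1 library left out, the 37 genes gave 2 to 4 lower and 0 to 1 higher, with a median of -0.51 to -0.052, and the other genes gave 5 to 12 lower and 2 to 11 higher. The highest of these values for other genes were 12 lower without *Sirt6*-/- 2 and 11 higher without WT 1, and the lowest was 2 higher without *Sirt6*-/- 2. Over all genes, calls split into 615 lower and 977 higher with TMM, 800 and 751 with upper quartile scaling and 838 and 721 with library size alone, where the median of all genes was -0.09 in each of the latter.

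Signs changed under some settings, mostly for genes near 0. *Cdhr5* was -0.028 with upper quartile scaling and -0.043 with library size alone, and *Afp* -0.018 and -0.029. *Fga* was -0.0089 with library size alone. *Vil1* was 0.022 with the replicate block, 0.012 on log2(TPM + 1) and 0.013 on log2(TPM + 0.1). *Lct* was 0.37 with the block and 0.069 on log2(TPM + 0.1). With 1 library left out, the log2 fold change crossed 0 in 18 genes. The ranges were *Cdx1* -0.90 to 0.27, *Vil1* -0.29 to 0.31, *Cdhr5* -0.29 to 0.45, *Sis* -0.57 to 0.0075, *Lct* -1.42 to 2.23 and *Fabp1* -0.034 to 0.22. Those of the next genes were *Fabp2* -0.51 to 0.035, *Mttp* -0.30 to 0.18, *Apoa4* -0.64 to 0.060, *Apoc2* -0.11 to 0.45, *Apoh* -0.76 to 0.78 and *Afp* -0.69 to 0.68. The remaining ranges were *Rbp4* -7.51 to 1.98, *Fga* -0.33 to 0.62, *Fgb* -1.05 to 0.22, *Fgg* -0.76 to 0.27, *Serpina1a* -10.59 to 9.35 and *Krt20* -0.40 to 0.19. Ranges within 1 sign moved by over 1.5 times for others, such as *Apoa1* (-0.90 to -0.25), *Apob* (0.20 to 1.16), *G6pc* (0.37 to 1.92), *Lgals4* (-0.64 to -0.059), *Rbp2* (-1.22 to -0.12) and *Ahsg* (-8.79 to -1.15). The lower ends of *Rbp4* and *Ahsg* and both ends of *Serpina1a* come from a group left with a single library at 0 counts and are no measure of size.

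The replicate numbers are shared between groups only as numbers. The deviations of same-numbered libraries from their group means correlated at -0.05 over all genes and at -0.76 over the 37 genes, with 2 pairs. Genes with a library at 0 counts weigh on the latter value. *Serpina1a* had log2 CPM of 2.62 and -4.99 in WT and of -4.99 and 1.40 in *Sirt6*-/-, where -4.99 stands for 0 counts. As a block, the number gave *Tspan8*, *Hp* and *Crp* (1.37) at the unadjusted p, and *Alb* at 1.89 (unadjusted p = 0.0729). The cause of these changes was not tested. Calls of *Onecut2* and *Slc10a1* were lost under 3 of 12 alternatives and those of *Espn* and *Cps1* under 2. Low counts limit the 20 genes under 10 CPM, with 2 libraries per group.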
